A study of Mus musculus with 6 samples.

Results

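Histone genes were read in cultured neural progenitor cells of mice labelled p53-null. The set held every gene whose symbol begins with a histone prefix (H1f, H2ac, H2bc, H2az, H2ax, H2aj, H2aw, H2af, H3c, H3f, H4c, H4f, Hist or Macroh2a), with 4 symbols marked as pseudogenes by "-ps" left out. This gave 72 of the 22057 genes of the table. From their symbols 58 were classed as replication-linked (5 of H1, 15 of H2A, 14 of H2B, 11 of H3 and 13 of H4) and 10 as replacement genes. H1f6, a testis linker histone, was classed as germ-line, and 3 were left without a class: H2aw, H3f4, which is a pseudogene in GENCODE and protein-coding in RefSeq, and H3f3aos, an antisense gene of H3f3a.

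Histones are the proteins that DNA is wound on. Replication-linked histone genes lie in clusters, have no introns and are read in S phase, when new DNA needs packing, and most of their mRNAs end in a stem-loop bound by SLBP in place of a poly(A) tail. Replacement histones such as H3.3 and H2A.Z come from genes outside those clusters, are made throughout the cell cycle, and their mRNAs are polyadenylated. H2ax, classed here as a replacement gene, differs in that its transcript holds stem-loop letters, printed below. Some replication-linked genes also give polyadenylated transcripts in cells that leave the cell cycle.

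The stem-loop at the 3′ end is the feature that separates the classes in sequence, so its letters were looked for in the GENCODE M21 transcripts of GRCm38. The search covered every position and allowed G-T pairs, so a match need not lie at the 3′ end. A match was found in 39 of 58 replication-linked genes (67.2%), in 1 of 10 replacement genes, H2ax, and in 436 of 21877 protein-coding genes (1.99%). Many of the replication-linked models without it hold coding bases and little else, so a missing stem-loop there says only that these letters are not in the model. The forms below are written 5′ to 3′ as DNA letters, with the 4 bases of the loop in capitals. They are shown because H2aw and H2ax, which did not move alike, carry letters of the same kind as the genes that fell most.
H2aw, and 20 replication-linked genes among them H1f2, H2bc6 and H3c2: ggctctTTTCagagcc
H3c3, H2bc12, H2bc3, H3c6, H3c7 and the germ-line H1f6: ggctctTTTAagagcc
H3c8: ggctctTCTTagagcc
H4c4, H4c8, H4f16 and 4 other H4 genes: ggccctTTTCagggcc
H2ax: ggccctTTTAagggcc
The H4 genes of this list and H2ax share the letters of the stem, and the others share another stem.

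The control medium, EF, held heparin with the growth factors EGF (epidermal) and FGF (fibroblast), and the other medium PDGFA, a platelet-derived growth factor. The labels do not say plainly whether the PDGFA medium also held EGF, FGF or heparin, so a swap and an addition of factors cannot be told apart. Each was used for 4 days on cells of mice 62, 68 and 69, so n = 3 in each group, all 6 libraries are labelled p53-null, and the same animals stand on both sides. The labels name the RNA as poly(A) RNA, the fraction in which mRNAs that end in a stem-loop are poorly represented. How far the levels below reflect that fraction was not tested.

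The 6 libraries held 27270246 to 39601349 reads over genes. Values are the authors' normalized counts, that is reads divided by a size factor of each library. Differences are PDGFA minus EF on the log2(normalized count + 1) scale from limma with Benjamini-Hochberg adjustment over all 17068 tested genes, given ± SE, and a gene is called at an adjusted p under 0.05. Trp53, the gene named by the genotype, was read at 2187, 1672 and 2383 in EF 62, 68 and 69 and at 1122, 988.3 and 1099 in PDGFA 62, 68 and 69. The labels do not say which bases of the gene are lost, so these counts do not check the genotype. Of 8 neural progenitor markers 4 fell and 3 rose, among the falls Nes. All 8 oligodendrocyte markers rose (summed 2453 to 3867 in EF and 285562 to 361248 in PDGFA), as did 5 of 8 astrocyte markers (48246 to 87037 and 173435 to 282353). In bulk RNA, fewer cells of a type and less RNA per cell cannot be told apart.

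Replication-linked histone genes were lower in PDGFA almost throughout. Of 55 that passed the minimum mean normalized count of 10, 53 fell, H2bc21 rose and H3c15 was not called. H2aw, an H2A gene left without a class and so outside the 55, rose (2.06 ± 0.23, adjusted p = 0.000475). In the background 18.0% of all tested genes were called lower and 21.8% higher. The median difference of the 55 was -3.43 against -0.01 over all tested genes, 52 fell at least 2-fold and 36 at least 8-fold. In 53 of the 55 all 3 PDGFA libraries lay under all 3 EF libraries, which held for 26.3% of all tested genes, and in 2 they lay above, which held for 29.2%. With any library left out, 52 or 53 were called lower.

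**Figure D1:**
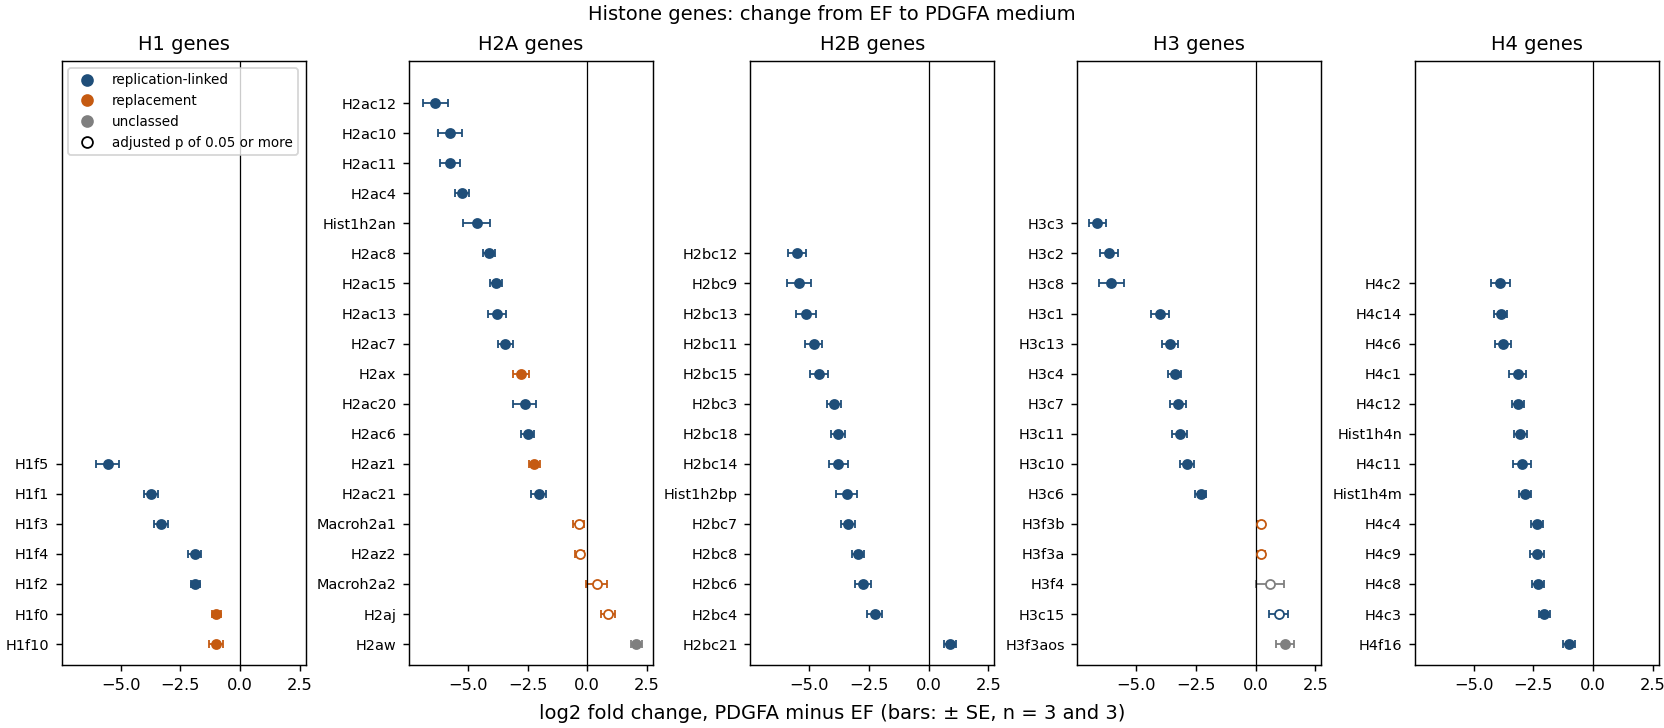
The log2 difference (PDGFA minus EF, x axis) of each tested histone gene, by family, with bars of ± SE from limma (n = 3 and 3), filled where the adjusted p was under 0.05. Replication-linked genes reach from H3c3 at -6.65 to H3c15 at 0.97, while 6 of the 10 replacement genes have open points between -0.36 and 0.88.

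The summed normalized count of the 58 replication-linked genes was 149577, 206463 and 338671 in EF 62, 68 and 69, and 27440, 34410 and 27719 in PDGFA 62, 68 and 69. The highest PDGFA library was thus well under the lowest EF library, and the means differed 7.76-fold. The 10 replacement genes summed to 32653, 41486 and 54295 in EF and to 28638, 30825 and 25069 in PDGFA, 1.52-fold lower, with every PDGFA library under every EF library. Of these 10 genes, 4 were called lower, against 18.0% of all tested genes, and 6 were not called, so the lower sum is not a fall of every member. Markers of dividing cells were lower in PDGFA too. All 8 of that list fell, with a median difference of -6.25, and their sum went from 43059, 68906 and 97891 to 1919, 2140 and 2286, 33.1-fold lower. The part of this change in the histone values was not tested.

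**Figure D2:**
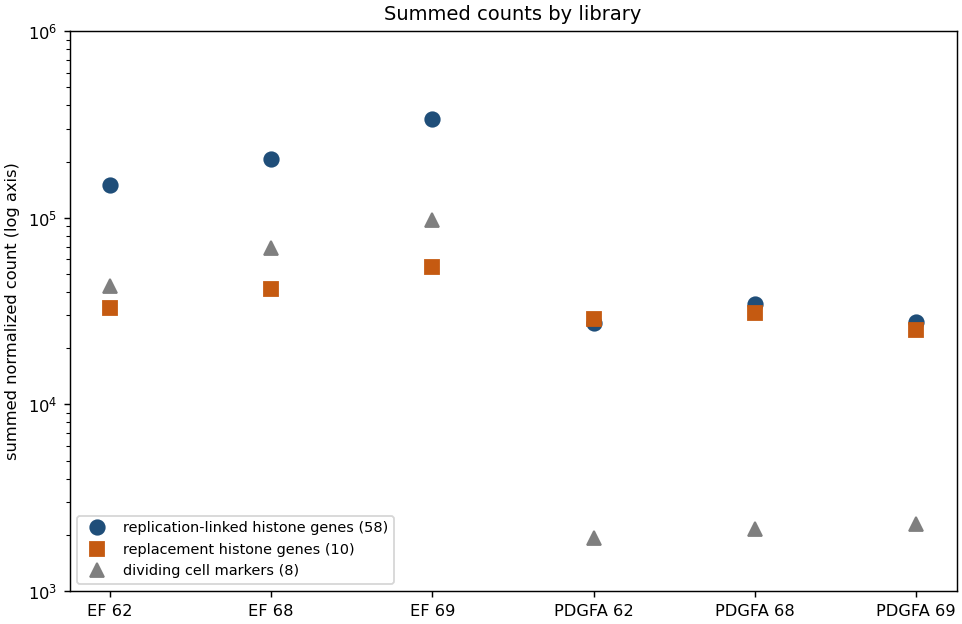
Summed normalized counts (log axis) in the 6 libraries for the 58 replication-linked histone genes, the 10 replacement histone genes and 8 markers of dividing cells. In PDGFA the circles, 27440 to 34410, lie beside the squares, 25069 to 30825, whereas in EF they lie several fold above them.

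The linker histones of the H1 family, which sit on the DNA between nucleosomes, fell in all 5 replication-linked members, with a median of -3.30. H1f4 was read at 13583, 16833 and 26688 in EF 62, 68 and 69 and at 4759, 6000 and 4187 in PDGFA, a difference of -1.89 ± 0.27 (adjusted p = 0.00133). H1f2 was at 14708, 15626 and 21618 against 3980, 5328 and 4743, the smallest fall of the replication-linked H1 genes (-1.88 ± 0.19, adjusted p = 0.000325). Neither gene had overlapping groups. H1f5 moved furthest, from 3301, 7277 and 13452 to 117.1, 197.7 and 135.3 (-5.54 ± 0.48, adjusted p = 0.000134). H1f3 fell from 12451 ± 5074 (SD, n = 3) to 1225 ± 280.3, and H1f1 from 3952 ± 1745 to 284.7 ± 71.9. The makeup of the H1 signal therefore differed between the media. Per kilobase of exon, H1f5 held 15.4, 26.0 and 29.6% of all H1 in EF and 2.12, 2.75 and 2.42% in PDGFA, while H1f4 went from 23.4 ± 0.93% to 31.4 ± 2.28% (SD, n = 3).

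The core histone H2A had 12 tested replication-linked members and all fell, with a median of -3.98. H2ac15, the replication-linked H2A gene with the highest mean, was at 4198, 4937 and 8440 in EF and at 350.5, 458.3 and 374.5 in PDGFA (-3.83 ± 0.27, adjusted p = 5.25e-05). H2ac12 showed the largest fall of all tested H2A genes, from 501.8, 855.7 and 1500.0 to 7.64, 17.2 and 6.27 (-6.37 ± 0.51, adjusted p = 9.7e-05). Few reads stand behind its PDGFA values. H2ac4 and H2ac6, the next most abundant, fell too (-5.25 and -2.49). H2ac21, in the cluster on chromosome 3, fell least, from 249.9, 398.6 and 531.8 to 96.8, 87.8 and 87.8 (-2.04 ± 0.31, adjusted p = 0.00188). H2ac19 and the pseudogenes H2ac14 and Hist1h2al were under the minimum mean and were not tested. H2ac19, which shares all its 50-base stretches with other genes, was at 4.79, 0 and 2.56 in EF 62, 68 and 69 and at 16.1, 16.2 and 12.5 in PDGFA.

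H2B, the partner of H2A, had 14 tested members, of which 13 fell and 1 rose, with a median of -3.79. H2bc3 was read at 4207, 4931 and 9306 in EF and at 327.6, 427.8 and 357.5 in PDGFA (-3.97 ± 0.29, adjusted p = 7.03e-05). H2bc4, at 3154, 4390 and 7557 against 999.8, 1043 and 883.4, had the smallest fall (-2.27 ± 0.30, adjusted p = 0.000904). H2bc8 fell by 2.97 on the log2 scale. H2bc12 showed the largest fall, from 1929, 2964 and 4910 to 51.8, 92.6 and 59.1 (-5.51 ± 0.37, adjusted p = 4.83e-05). In each of these genes the groups were far apart.

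H2bc21 lies in the chromosome 3 cluster (chr3:96221119-96223738, plus strand, GRCm38) and has a longer exon model than most H2B genes. It was read at 203.0, 141.9 and 232.7 in EF and at 355.6, 363.8 and 330.6 in PDGFA. All PDGFA values were above all EF values (0.89 ± 0.24, adjusted p = 0.0228). The call was lost without any 1 of the PDGFA libraries (adjusted p = 0.0826 without 62, 0.0992 without 68 and 0.0642 without 69) and without both libraries of mouse 68 (0.227). As a share of replication-linked H2B per kilobase of exon, H2bc21 went from 0.118 ± 0.0544% to 2.88 ± 0.211% (SD, n = 3).

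H3 had 11 tested replication-linked members, 10 of them lower, with a median of -3.40. H3c6, the replication-linked H3 gene with the highest mean, was at 5176, 6582 and 9554 in EF and at 1365, 1607 and 1220 in PDGFA (-2.31 ± 0.23, adjusted p = 0.000293). H3c13 fell by 3.59 on the log2 scale. H3c3 (chr13:23744973-23745602, minus strand) had the largest difference of all tested histone genes, from 2944, 4867 and 7452 to 33.9, 48.7 and 60.0, a 107-fold difference of means (-6.65 ± 0.36, adjusted p = 2.42e-05). H3c2 and H3c8, with -6.16 and -6.05, came next in the family. H3c15, in the chromosome 3 cluster, was low in every library, at 16.3, 27.0 and 40.9 in EF and 54.3, 50.6 and 52.9 in PDGFA. Its groups did not overlap, yet it was not called (0.97 ± 0.40, adjusted p = 0.0928), except without EF 69 (1.28, adjusted p = 0.0336).

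H4, the partner of H3, fell in all 13 members, with the smallest median of the 5 families, -2.98. H4c4 was read at 9372, 11293 and 18489 in EF and at 2105, 2896 and 2401 in PDGFA (-2.35 ± 0.26, adjusted p = 0.000441). H4c8, at 6822, 9355 and 13885 against 1829, 2148 and 1854, fell by 2.31 on the log2 scale and H4c3 by 2.05. H4c8 had the highest level per kilobase of exon of all 72 genes in both media, 21321 in EF and 4136 in PDGFA (means of 3 libraries). H4c2 had the largest fall, from 2730, 5816 and 9614 to 336.9, 388.6 and 362.9 (-3.88 ± 0.41, adjusted p = 0.000334).

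H4f16 is the only replication-linked gene of the set on chromosome 6 (chr6:136801553-136804415, minus strand), away from the clusters, and showed the smallest fall of any replication-linked gene. It was at 779.5, 1130 and 1612 in EF and at 544.9, 562.4 and 590.4 in PDGFA, with no overlap (-0.99 ± 0.26, adjusted p = 0.0196). The call was lost without EF 68 (adjusted p = 0.0515), without PDGFA 62, 68 or 69 (0.0641, 0.066 and 0.057) and without mouse 68 (0.136).

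By position, the 47 tested replication-linked genes of chromosome 13, which lie between 21715763 and 23764406, all fell, with a median of -3.43. On chromosome 3, between 96219865 and 96270132, 7 were tested, 5 fell, 1 rose and 1 was not called, with a median of -2.63. Whether the clusters differ was not tested.

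H2A and H2B genes often stand head to head over a short shared promoter region, and 10 such pairs with less than 500 bases between the starts were found among the 72 genes. Of the 9 pairs with both genes tested, 8 fell on both sides, and their partners differed by 0.04 to 1.36 on the log2 scale. The exception was H2ac20 with H2bc21, whose starts are 238 bases apart. H2ac20 fell from 838.9, 1720 and 3505 to 266.5, 334.2 and 238.3 (-2.63 ± 0.47, adjusted p = 0.00388) while H2bc21 rose. In EF 62, 68 and 69 the ratio of H2bc21 to H2ac20 was 0.242, 0.0825 and 0.0664, and in PDGFA it was 1.33, 1.09 and 1.39. The groups of ratios did not overlap. An exact two-sided permutation test without pairing by mouse gave p = 0.1, the smallest that 3 against 3 unpaired libraries can give. With Benjamini-Hochberg adjustment over the 5 ratios computed, which were chosen with the results known, it was 0.125.

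EF libraries of different mice were unlike. EF 69 was the highest EF library in all 55 tested replication-linked genes and EF 62 the lowest in 53. Of all 17068 tested genes, EF 69 was highest in 7056 and EF 62 lowest in 7270. EF 69 over EF 62 had a median of 2.29 over the replication-linked genes (range 1.15 to 5.05), 1.88 over the replacement genes and 1.07 over all tested genes. Mki67 and Top2a, read in dividing cells, had ratios of 1.92 and 1.91, and Pcna, a replication clamp, 3.38. The order of the EF sums was the same for the histone classes and the markers of dividing cells. It was not particular to them. Neural progenitor markers had it too (78026, 127435 and 188277 in EF 62, 68 and 69). So did the lists of histone mRNA formation and of chaperones of newly made histones described below. The part of this order in the spread was not tested. The 8 oligodendrocyte precursor markers had another order, with sums of 80436, 151974 and 93514 in EF 62, 68 and 69. Oligodendrocyte, astrocyte and neuron markers and the chaperones of variants also had other orders. PDGFA libraries were closer together, with a median ratio of highest to lowest of 1.35 over the replication-linked genes.

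The 10 replacement genes moved less and not in step. Of these, 4 fell (18.0% of all tested genes were called lower), none was called higher (21.8% of all tested genes) and 6 were not called. Their median was -0.34, against -0.01 over all tested genes. By the unadjusted limma p under 0.05, 1 was higher, and by adjusted p edgeR called 0 and DESeq2 called 1 higher.

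H2ax, whose protein is phosphorylated at DNA breaks and whose transcript carries the stem-loop printed above, had the largest fall of the class. It was read at 4239, 7135 and 11063 in EF and at 1030, 1084 and 918.3 in PDGFA (-2.78 ± 0.32, adjusted p = 0.0005). H2az1, the first of the H2A.Z genes, followed, from 5075, 6111 and 9628 to 1464, 1455 and 1365 (-2.23 ± 0.23, adjusted p = 0.000319). In both genes the lowest EF library was over 3 times the highest PDGFA library.

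H2az2, the second H2A.Z gene, was at 1762, 2526 and 2738 in EF and at 1730, 2017 and 1802 in PDGFA. Its groups overlapped and it was not called (-0.32 ± 0.19, adjusted p = 0.217), though without EF 62 it was called lower (-0.51, adjusted p = 0.0161). In EF 62, 68 and 69 the ratio of H2az1 to H2az2 was 2.88, 2.42 and 3.52, and in PDGFA it was 0.846, 0.722 and 0.757, so the gene with more counts was H2az1 in each EF library and H2az2 in each PDGFA library. On the log2 scale the ratio differed by -1.91. An exact two-sided permutation test without pairing by mouse gave p = 0.1, the smallest it can give. After adjustment over the 5 ratios, which were chosen with the results known, it was 0.125.

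Linker variants were lower too. H1f0, the H1 of cells at rest and of differentiated cells, was at 4142, 3693 and 5557 in EF and at 2056, 2533 and 2036 in PDGFA, with no overlap (-1.0 ± 0.19, adjusted p = 0.0047). H1f10 was at 1200, 2148 and 2732 against 921.7, 1146 and 827.9 (-1.0 ± 0.30, adjusted p = 0.0329). EF 62 stood only just above the highest PDGFA library. The H1f10 call was lost without any library other than EF 62 (adjusted p from 0.0559 to 0.111) and without mouse 68 (0.132). Both fell less than the other H1 genes, so together they made up 10.4, 9.45 and 8.08% of all H1 per kilobase of exon in EF and 23.7, 22.5 and 22.2% in PDGFA.

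H3f3a and H3f3b both encode H3.3, the H3 placed outside replication by HIRA and by DAXX with ATRX, and neither was called. H3f3b was read at 9409, 9373 and 9605 in EF and at 10878, 12448 and 9734 in PDGFA, non-overlapping but close (0.21 ± 0.14, adjusted p = 0.272). H3f3a was at 1957, 2382 and 2797 against 2918, 2814 and 2495, with overlap (0.22 ± 0.16, adjusted p = 0.327). The ratio of H3f3a to H3f3b had group means that differed by 0.00 on the log2 scale (exact two-sided unpaired permutation p = 0.9). Since the replication-linked H3 genes fell, both H3.3 genes took up 49.1, 46.4 and 45.8% of H3 per kilobase of exon in PDGFA, compared with 9.45, 6.46 and 4.35% in EF. By plain counts the shares were 80.1 ± 0.807% in PDGFA and 25.4 ± 7.41% in EF (SD, n = 3). H3f3b stood at rank 40 of the 72 genes per kilobase in EF and at rank 2 in PDGFA, behind H4c8.

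H2aj, an H2A gene outside the clusters, was at 288.3, 558.4 and 654.6 in EF and at 898.8, 882.3 and 827.0 in PDGFA. All PDGFA values were above all EF values, and its adjusted p of 0.0509 was just over the threshold (0.88 ± 0.30). It was called with TMM scaling (0.0445), by DESeq2 (0.03), with a minimum mean of 50 (0.05 after rounding), and with EF 62 left out (0.52, adjusted p = 0.0238), or with EF 69 left out (1.11, adjusted p = 0.0242). H2aj (chr6:136808244-136810074, plus strand) is a near neighbour of H4f16, which fell.

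The macroH2A genes encode H2A forms with a large extra domain. Macroh2a1 was at 3977, 5935 and 7412 in EF and at 4796, 4564 and 3789 in PDGFA (-0.36 ± 0.23, adjusted p = 0.26). Macroh2a2 was at 604.3, 1625 and 2107 against 1945, 1882 and 1276 (0.39 ± 0.44, adjusted p = 0.512). Both overlapped, and EF 62 was the lowest EF library in each. Without EF 62 Macroh2a1 was called lower (-0.60, adjusted p = 0.0232), and the difference of Macroh2a2 turned to -0.15 (adjusted p = 0.622).

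**Figure D3:**
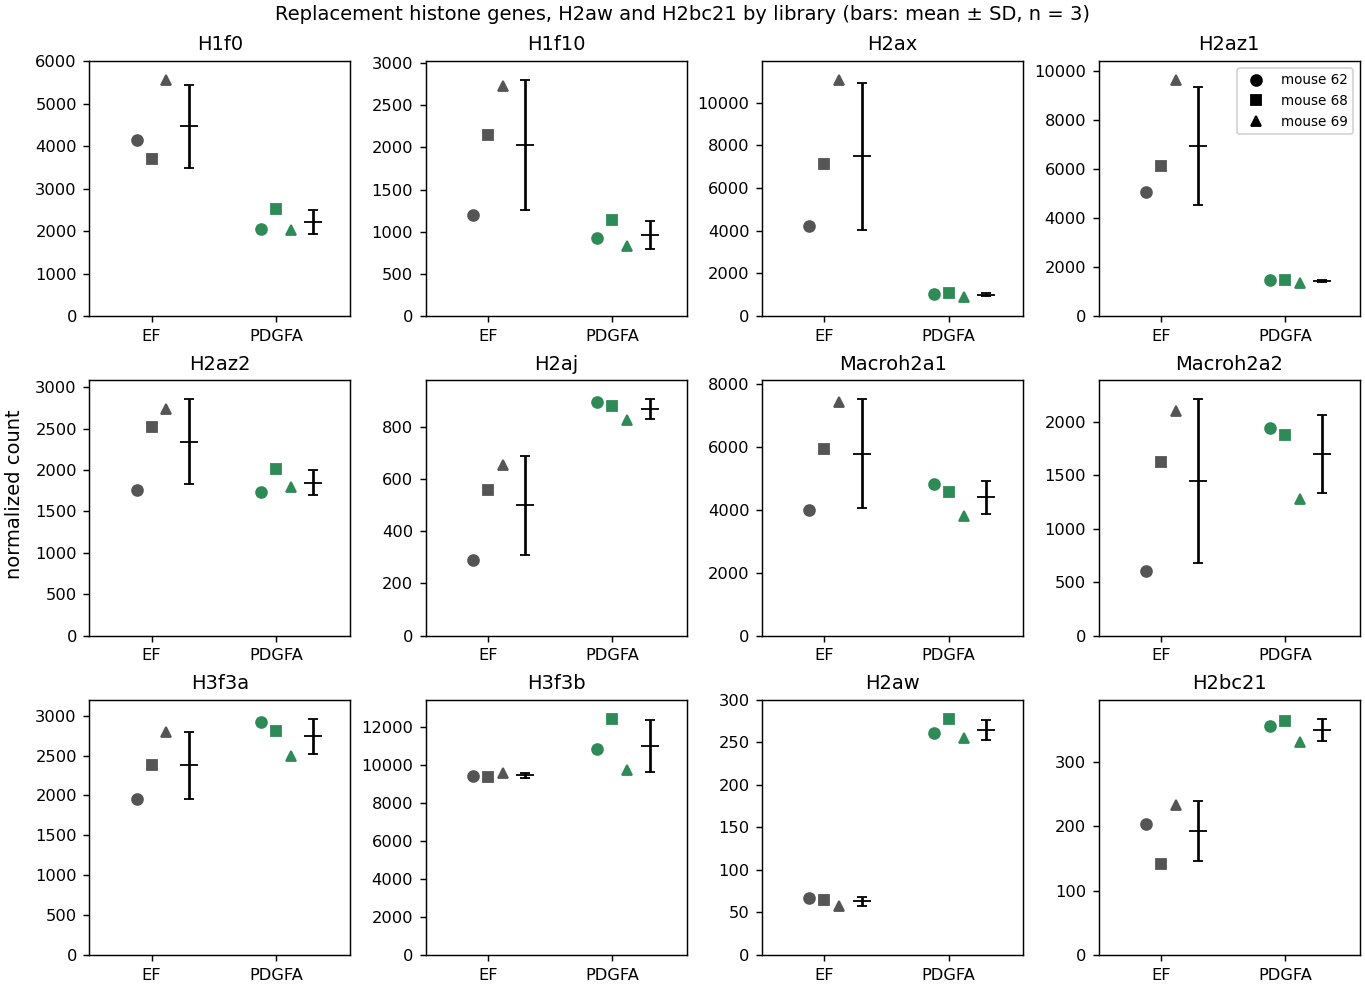
Normalized counts (y axis, from 0) of the 10 replacement genes, H2aw and H2bc21 in each library, with the mouse given by the marker and bars of mean ± SD (n = 3). H2ax and H2az1 fall, H3f3a and H3f3b lie at similar heights in both media, and H2aw and H2bc21 are higher in all PDGFA libraries.

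The makeup of the histone signal differed between the media. Per kilobase of exon, replication-linked genes gave 93.5, 94.0 and 95.0% of the signal of both classes in EF and 74.2, 76.7 and 76.8% in PDGFA, and by plain counts 83.8 ± 2.11% and 51.4 ± 2.14% (SD, n = 3). Of all H2A per kilobase, replacement genes gave 19.9, 21.5 and 18.2% in EF and 63.1, 57.9 and 59.8% in PDGFA. By plain counts they gave 50.1 ± 2.82% of H2A in EF and 87.0 ± 1.45% in PDGFA (SD, n = 3). The groups did not overlap in any of these shares. Shares per kilobase depend on the exon models, several of which hold coding bases alone, and shares of counts weigh long genes more. The RNA is labelled poly(A) RNA, in which mRNAs that end in a stem-loop are poorly represented. The shares between classes given here and above are those of that fraction. They need not be those of all histone mRNA in the cells.

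**Figure D4:**
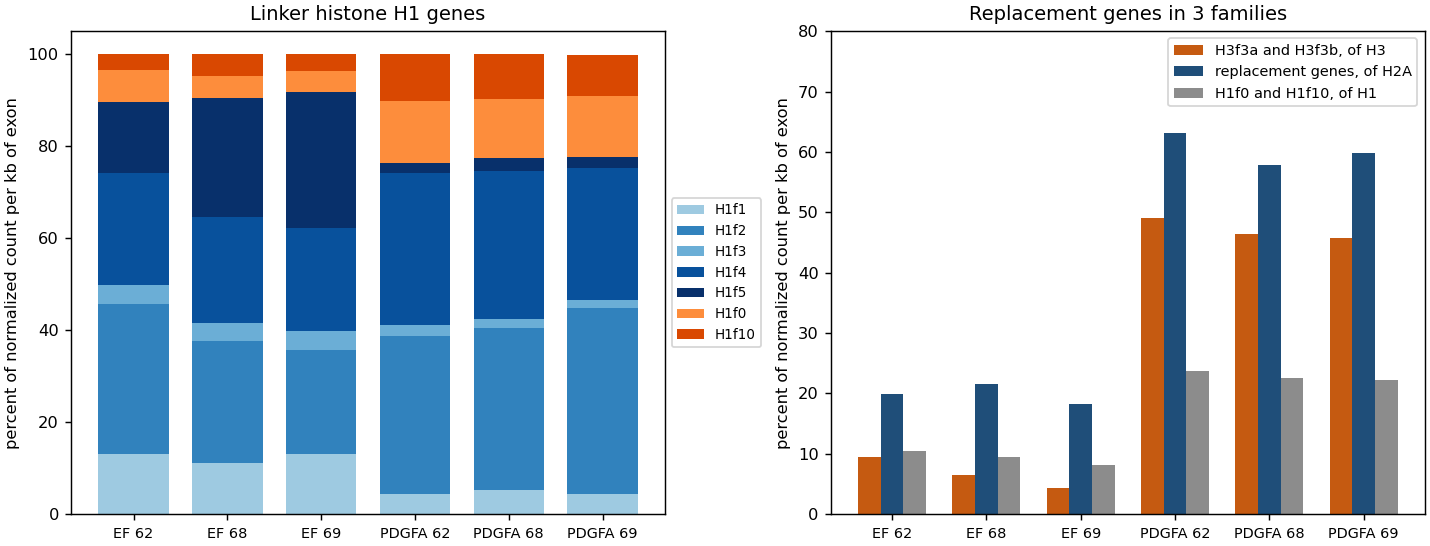
Left, the percent of H1 counts per kilobase of exon from each H1 gene in the 6 libraries. Right, the percent from replacement genes within H3, H2A and H1: the bars of the 3 PDGFA libraries (22.2 to 63.1%) are higher than those of EF (4.35 to 21.5%) within each family.

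Among the genes without a class, H2aw had the largest rise of all tested histone genes. H2aw (formerly Hist3h2a, chr11:58954685-58956830, plus strand) encodes an H2A and was read at 67.0, 64.2 and 57.5 in EF and at 260.6, 277.9 and 255.3 in PDGFA. The groups were far apart and each was tight (2.06 ± 0.23, adjusted p = 0.000475), and the difference with any library left out was 1.99 to 2.10. Its transcript holds the most frequent stem-loop of the replication-linked genes, followed by 1643 further annotated bases. Close to it lies H3f4, at 14.4, 9.01 and 2.56 against 13.6, 9.55 and 11.6, which overlapped and was not called (0.61 ± 0.60, adjusted p = 0.449). H3f3aos was at 79.5, 37.2 and 44.7 against 96.8, 132.7 and 138.0 (1.23 ± 0.37, adjusted p = 0.0324). That call was lost with the mouse as a block (0.0644), without any library other than EF 62 (adjusted p from 0.0601 to 0.122) and without mouse 68 (0.273). H3f3aos overlaps H3f3a on the other strand and the library kit does not mark strand, so their reads cannot be told apart where they overlap. The testis gene H1f6 was under the minimum mean, at 18.2, 4.5 and 2.56 in EF and 4.24, 4.77 and 3.58 in PDGFA.

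The length of the annotated transcript past the stem-loop was set beside the differences, with a split at 100 bases chosen after the values were seen. The 19 tested replication-linked genes with at most 100 such bases all fell, with a median of -3.88. Of the 19 with more, 18 fell, with a median of -2.75, and H3c15 was not called. Genes whose models hold no stem-loop, 17 tested, had 16 falls, the rise of H2bc21 and a median of -3.78. H4f16, with 2445 bases past the loop, differed by -0.99 on the log2 scale, H1f3, with 4884, by -3.30, and H2bc9, with 1214, by -5.43. For H3c3, with 74, the difference was -6.65. No test was made of this split, and the models were not checked against reads here.

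**Figure D5:**
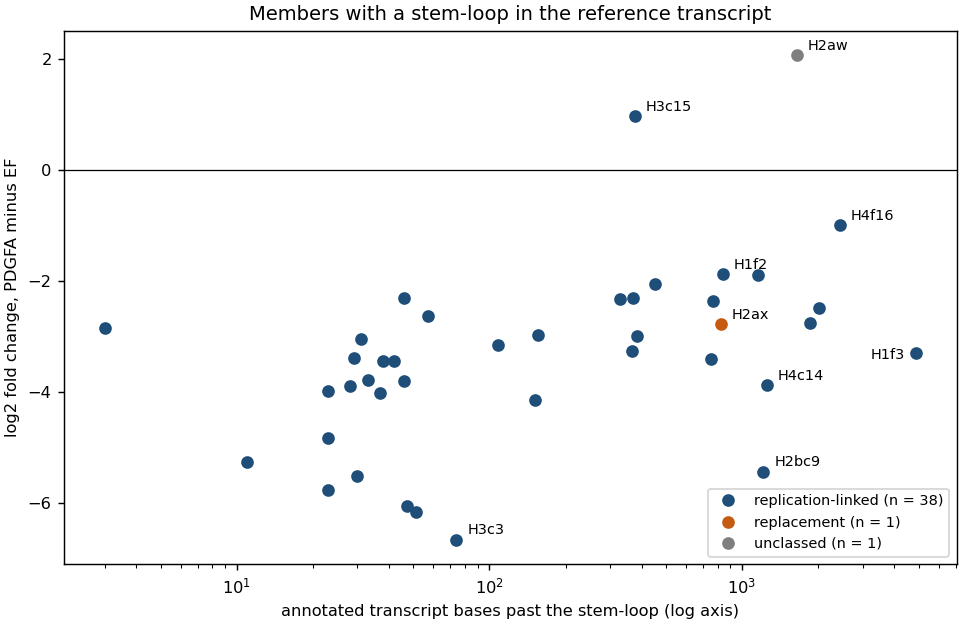
Annotated transcript bases past the stem-loop (x axis, log scale) and log2 difference (PDGFA minus EF, y axis) for the 40 tested histone genes with a stem-loop in GENCODE M21. The points with more than 100 bases include H4f16 at -0.99, H3c15 at 0.97 and H2aw at 2.06, and the points with fewer lie between -2.31 and -6.65.

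Promoter sequences in the 250 bases before the RefSeq start (GRCm38.p6) were matched for 51 replication-linked and 9 replacement genes and searched on both strands for 3 motifs. The letters CCAAT, a site of the factor NF-Y, were in 80.4% of replication-linked promoters, against 34.5% of all 27025 promoters, and in all matched promoters of H1, H2A and H2B but in 25.0% of H4. The box at which many promoters bind the general transcription machinery, searched as TATAAA, was in 51.0% of them, against 13.0%. The octamer known from H2B promoters, which OCT1 binds, was searched as ATTTGCAT and was in 19.6%, against 1.61%. The octamer was found in 38.5% of H2A and 41.7% of H2B promoters and in none of those of H1, H3 and H4. Replacement promoters held these letters in 55.6, 11.1 and 11.1%. The last 120 bases before the start are printed for H2bc12, the H2B gene with the largest fall, for H2aw, which rose, and for H4f16, which fell least, with matches to the 3 motifs on either strand in capitals.
H2bc12, chr13:22035701-22035820, plus strand: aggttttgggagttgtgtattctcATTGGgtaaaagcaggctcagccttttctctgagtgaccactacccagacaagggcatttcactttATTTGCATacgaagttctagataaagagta
H2aw, chr11:58954565-58954684, plus strand: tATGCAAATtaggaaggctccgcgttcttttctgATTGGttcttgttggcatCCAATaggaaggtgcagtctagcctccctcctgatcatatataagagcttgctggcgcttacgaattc
H4f16, chr6:136804432-136804551, minus strand: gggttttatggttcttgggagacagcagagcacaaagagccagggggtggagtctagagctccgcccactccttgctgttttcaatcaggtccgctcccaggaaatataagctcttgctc
H2bc12 and H2aw thus share an octamer and CCAAT letters in the printed bases, and they moved in opposite directions. In the 250 bases H2bc12 also holds TATAAA and H2aw does not. H4f16 shows none of the 3 motifs in the printed bases. Whether the motifs bear on the differences was not tested. H2bc21, which rose, had no promoter entry and is not in these counts. The 10 matched replication-linked genes with an octamer all fell, with a median of -3.88, and of the 40 tested without it 39 fell, with a median of -3.39. The 40 tested with CCAAT all fell (median -3.75), as did 9 of the 10 without it (-2.91). A match of letters is a description and shows no binding.

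Because histone genes are near-identical copies, the counting could have split or dropped their reads. By the share of each gene's 50-base stretches that occur in no other GENCODE gene, 30 replication-linked genes reached 50% or more. Of these 29 fell and H2bc21 rose, with a median of -3.06. Of the 25 tested genes under 50%, 24 fell and H3c15 was not called, with a median of -3.83. Values of single genes in the second group, such as H2ac12 (9.27% of stretches unique) and H2bc12 (25.8%), are uncertain, and H3c3 (53.0%) is partly shared.

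Genes that serve the supply of histones were counted in 3 lists drawn up from textbook roles. The first held 14 genes for transcription and 3′ end formation of histone mRNA. Of these 6 fell and Sympk, a scaffold of the 3′ processing complex, rose, with a median of -0.38. Over all tested genes 18.0% were called lower and 21.8% higher, with a median of -0.01. Slbp, which binds the stem-loop, was at 835.1, 1045 and 2031 in EF and at 497.4, 510.9 and 501.7 in PDGFA (-1.26 ± 0.31, adjusted p = 0.0155). Lsm11, part of the U7 snRNP that directs the cleavage, and Eri1, an exonuclease acting on the stem-loop, fell too (-0.95 and -0.83). Npat, the coactivator of histone transcription, was at 1993 ± 185.4 (SD, n = 3) and 2025 ± 102.8 and was not called (0.03 ± 0.13, adjusted p = 0.89). The call of Slbp was lost without PDGFA 68 (adjusted p = 0.0502), without PDGFA 69 (0.0529) and without mouse 68 (0.0813). The 6 falls became 3 with the mouse as a block or without EF 69 or PDGFA 62, 1 without PDGFA 68 or PDGFA 69 and 0 without mouse 68. The rise of Sympk (0.50 ± 0.13, adjusted p = 0.0177) was lost with the block (0.0664), without PDGFA 62 (0.0882), without PDGFA 68 (0.0815) and without mouse 68 (0.175).

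Chaperones that carry newly made histones to DNA fell in 14 of 18 genes and rose in none, with a median of -1.02. By the unadjusted limma p, edgeR and DESeq2 the number of rises was also 0. The shares called over all tested genes were 18.0% lower and 21.8% higher. Asf1b, an H3-H4 chaperone of dividing cells, was at 299.7, 535.9 and 884.7 in EF and at 19.5, 23.9 and 22.4 in PDGFA (-4.52 ± 0.41, adjusted p = 0.000172). Chaf1b, a subunit of the CAF-1 complex that places H3 and H4 behind the fork, and Mms22l, which works with Tonsl at damaged forks, fell as well (-4.6 and -3.57). Asf1a, the other ASF1 gene, was at 1053 ± 227.1 (SD, n = 3) and 1014 ± 62.2 and was not called (-0.03 ± 0.18, adjusted p = 0.902). The 14 falls became 9, 8 and 7 without PDGFA 62, 68 and 69, and 7 without mouse 68.

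Chaperones and exchangers of variants fell in 9 of 18 genes and rose in none (also 0 by the unadjusted limma p, edgeR and DESeq2), with a median of -0.49. Among all tested genes 18.0% were called lower and 21.8% higher. Cenpa, the centromeric H3 variant itself, was at 3036, 3805 and 5101 in EF and at 73.8, 110.8 and 142.5 in PDGFA (-5.19 ± 0.29, adjusted p = 2.58e-05). Hjurp, its chaperone, fell by 2.01. None of the H3.3 chaperone genes Hira, Cabin1, Ubn1, Ubn2, Daxx and Atrx was called: Hira had -0.38 ± 0.18 (adjusted p = 0.122), Daxx -0.03 ± 0.20 (0.919) and Atrx -0.21 ± 0.15 (0.299). The 9 falls became 5 without any 1 PDGFA library and 4 without mouse 68.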

How the data were processed

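RNA of 6 libraries (3 EF, 3 PDGFA, paired by mouse number in the sample titles) was made into libraries with the unstranded NEBNext Ultra II RNA kit, per the labels' protocols. FastQC, STAR and DESeq2 and the build mm10 (GRCm38) are named per the submitters' processing notes. No label or header names the annotation or the counting settings. The authors deposited normalized signal, that is read counts divided by 1 size factor per library. Dividing by the smallest step gave whole reads for 100% of values within 0.001, with size factors of 0.782 to 1.18.

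Genes with a mean of at least 10 were tested (17068, with 4989 left out) with limma 3.58.1 in R 4.3.3 on log2 values with a pseudocount of 1, group as the only term, two-sided, Benjamini-Hochberg threshold 0.05. The test was checked on simulated data. The whole reads were used for edgeR 4.0.16 (quasi-likelihood) and DESeq2 1.42.0. Other alternatives were pseudocounts of 0.5 and 10, no minimum, a minimum of 50, TMM scaling, the mouse as a block, leaving out each library or mouse 68, and classes by stem-loop. Restriction to members with unique stretches was added after seeing the data. Members and lists were chosen with earlier results of these data known. Named genes are all tested replacement members, and per family the 3 highest means, the largest fall, the smallest change and all rises. From each list come up to 3 called genes per direction with the smallest p. Not every gene that this rule took is reported here. H2ac20, H2bc9, H3c2, H3c8, H2bc4 as the smallest fall, Npat, Asf1a and the H3.3 chaperones were named after their values were seen.

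Gene models came from GENCODE M21, promoters from RefSeq (GRCm38.p6). Counts per kilobase used the union of exons. Same-mouse libraries deviated from their group means with correlations of -0.0906, 0.11 and -0.11 for mice 62, 68 and 69. Library pairs within a group differed beyond sampling noise (chi-square over its degrees of freedom, 22.0 to 155). Intervals of read counting were not added, and the PDGFA values of genes with few reads are imprecise.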

Additional observations from a re-analysis of the deposited data

How the results depend on the processing

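Over 1018 differences of the tested histone genes under the alternatives, 987 kept direction and side of the threshold, 22 of 4 genes (H3f3aos, H2bc21, H1f10, H4f16) lost the call, 8 of 4 genes gained it (H2aj, H3c15, H2az2, Macroh2a1) and 1 turned, Macroh2a2 (-0.15 without EF 62, up to 0.75 without EF 69). Of 195 values of the 13 other genes that the naming rule took, 13 of 5 genes lost the call, and genes named outside the rule are not counted here. Replication-linked falls numbered 52 to 53 leaving out single libraries, and 29 among members with unique stretches, where fewer genes are counted. Rises numbered 2 with no minimum, 0 to 2 leaving out single libraries and 0 without mouse 68. Replacement falls numbered 3 to 6 leaving out single libraries and 19 with classes by stem-loop, which moves other genes into the class. Replacement rises numbered 1 with a minimum of 50, TMM, DESeq2 and stem-loop classes, and 0 to 1 leaving out single libraries. Over all genes, falls numbered 1855 to 3848 and rises 2306 to 4213 leaving out single libraries, and 1335 and 1945 without mouse 68. For histone mRNA formation, falls numbered 3 with the replicate block, 1 to 7 leaving out single libraries and 0 without mouse 68; rises numbered 2 with TMM and DESeq2, 0 with the block, 0 to 1 leaving out single libraries and 0 without mouse 68. Falls of chaperones of new histones numbered 7 to 15 and 7, and those of variant chaperones 5 to 9 and 4, in the same order. The mouse as a block ended no call of a histone gene other than H3f3aos. The causes were not tested, apart from fewer samples or genes. Counting error is largest for genes with few reads, such as H3c15 and H3f4, and the genes under the minimum mean were not tested.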
